A study of Mus musculus with 58 samples.

Results

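The 8 acetylcholine receptor genes Chrm1, Chrm2, Chrm3, Chrm4, Chrna3, Chrna4, Chrna7 and Chrnb2, of 25648 genes in the count table, were followed through single cells labelled as parvalbumin (PV) neurons in the ventral subiculum of mice. The genes were listed by name, with no threshold on their values, and all 8 were counted in the table and passed the filter on low counts. Fluorescent cells of PV-Cre::Ai9 mice, in which Cre under the control of the parvalbumin gene switches on a red reporter, were emptied through a patch pipette and each cell was made into a Nextera XT library. Of 58 cells, 54 carried the quality-control label Pass: 17 from females at postnatal day (P) 40, 10 from females at P42, 14 from males at P35 and 13 from males at P36. The strain is the same in every group and no treatment is labelled. The cells came from 3 female and 4 male animals, no label ties a cell to its animal, and females were older than males in every case, so sex and age cannot be told apart.

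Acetylcholine acts on neurons through G protein-coupled muscarinic receptors and through nicotinic receptors, which are pentameric cation channels. M1 and M3 (Chrm1, Chrm3) couple to Gq, which activates phospholipase C and closes M-type potassium channels, whereas M2 and M4 (Chrm2, Chrm4) couple to Gi/o, which opens GIRK potassium channels and lowers transmitter release. In the hippocampal formation, M2 is known from the axon terminals of PV basket cells. Alpha4 and beta2 subunits (Chrna4, Chrnb2) form the high-affinity nicotinic receptor of the brain, alpha7 (Chrna7) forms homomeric channels of high calcium permeability, and alpha3 (Chrna3) assembles mostly with beta4 (Chrnb4) in autonomic ganglia and the medial habenula.

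Pass libraries held 2.05 to 52.3 M counts, with a median of 11.5 M, where M stands for 1000000, and levels in a cell are counts per 1000000 of its own total (CPM). The deepest library, female P40 cell 3, held 22.8% of the counts of its pool. The PV label was set beside 7 markers fixed for PV interneurons. All 7 had a count in every Pass cell, and Gad1 (GABA synthesis) was at 1337 CPM or more throughout. Gad1, Gad2, Kcnc1 and Erbb4 reached 10 CPM in all 54 cells, Lhx6 in 52, Pvalb in 47 and Slc32a1 in 38. Lowest values were 0.458 CPM for Lhx6, 1.18 CPM for Pvalb and 1.24 CPM for Slc32a1, so a count alone does not settle the label of a cell. Markers of other cell types were present too, with Slc17a7 (which loads glutamate into vesicles of excitatory neurons) at 10 CPM or more in 26 cells and Sst in 22. In 40 cells Pvalb was above Sst and Gad1 above Slc17a7. Y-linked genes in female cells served as a partial measure of counts that do not come from the animal. Of 108 values, 1 reached 1 CPM, and the highest was 2.34 CPM. RNA from neighbouring cells of the same female does not show in this measure, since those cells also lack these genes. For the same reason counts carried over from libraries of other females do not show, and male cells are not measured at all. The highest value is used below as a reference for all 54 cells, not as an upper limit of carry-over. Among microglia markers, C1qb had a median of 53.3 CPM and Tmem119 of 0.328 CPM over Pass cells. How many receptor counts came from neighbouring cells was not tested. A count of 0 in a cell allows up to 0.0573 CPM in the deepest and up to 1.46 CPM in the shallowest Pass library, which covers counting error only.

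Chrnb2, Chrm2 and Chrna4 were at 10 CPM or more in most PV cells, Chrm1 in a minority, and Chrm3, Chrm4, Chrna3 and Chrna7 in 4 to 6 cells each. Chrnb2 passed this level in 52 of 54 cells (96.3%, exact 95% binomial interval 87.3 to 99.5%), Chrm2 in 43 (79.6%, 66.5 to 89.4%) and Chrna4 in 30 (55.6%, 41.4 to 69.1%). Chrm1 passed it in 21 cells (38.9%, 25.9 to 53.1%). For scale, the median tested gene did so in 31 cells, and 20.6% of the 14933 tested genes were in as many cells as Chrnb2, against 37.3% for Chrm2, 52.1% for Chrna4 and 61.1% for Chrm1. The intervals treat cells as independent, which cells of the same animal are not.

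**Figure D1:**
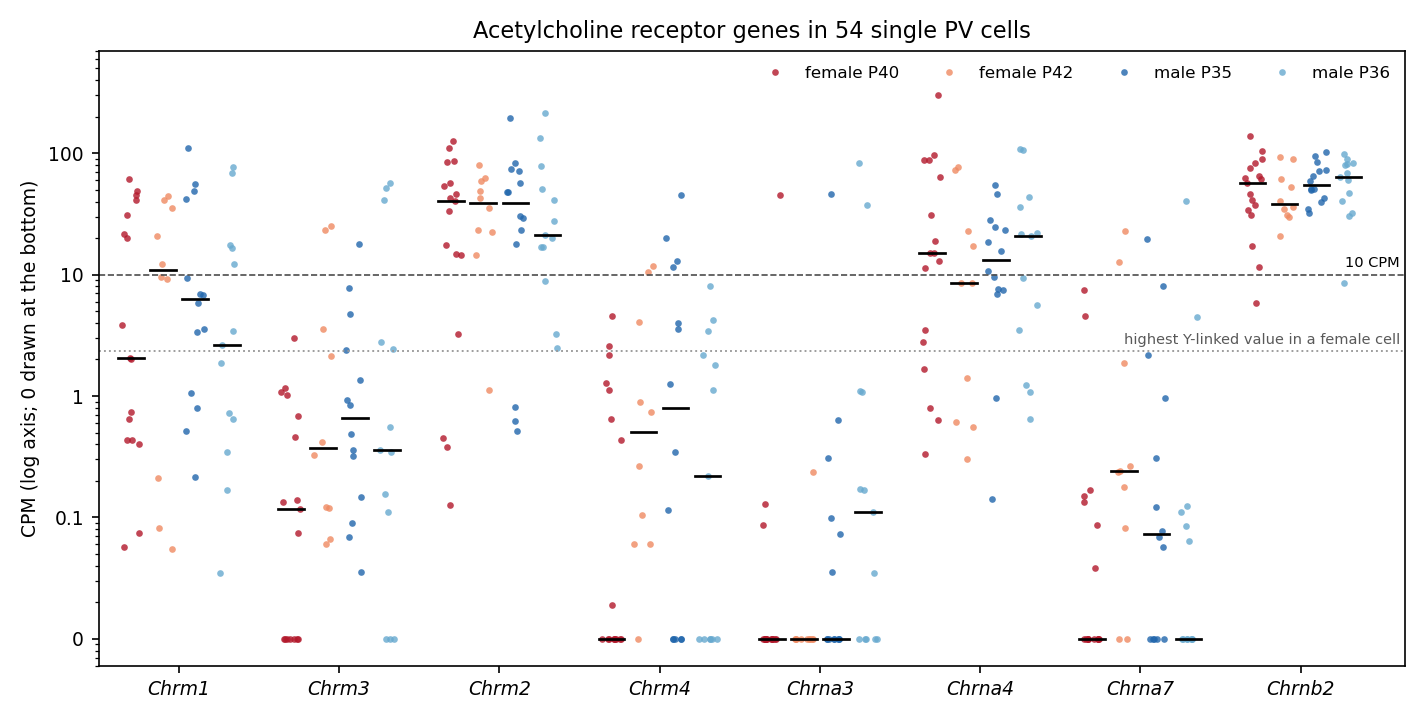
CPM of the 8 receptor genes (log axis, 0 drawn at the bottom) in each of the 54 Pass cells; each point is a cell, colours mark the 4 pools of sex and age, and black lines are pool medians. Chrnb2 lies above 10 CPM in 52 cells, while Chrna3 has 4 cells at 37.4 CPM or more and no other cell above 1.09 CPM.

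Among the muscarinic genes, Chrm2 (chromosome 6, 36388084 to 36528414, plus strand; all coordinates are GRCm38 from GENCODE vM21) was the leading one. It had lowest, median and highest values of 0.127, 40.8 and 126 CPM in female P40 cells, 1.12, 39.2 and 80.5 CPM in female P42 cells, 0.518, 39.3 and 196 CPM in male P35 cells and 2.48, 21.2 and 217 CPM in male P36 cells. The 4 ranges overlap widely, and in each pool most cells lay above 10 CPM, with 13, 9, 11 and 10 cells in that order of pools. Chrm2 was the highest muscarinic gene by CPM in 35 of 54 cells. CPM is not corrected for length. Exons hold 5676 bases for Chrm2, 6271 for Chrm1, 4336 for Chrm3 and 1440 for Chrm4. This disfavours Chrm4 in such a ranking and at a fixed CPM threshold. The cells below the threshold were not borderline: 7 were at or below the highest Y-linked value, only 4 lay between it and 10 CPM, and the nearest values on either side were 8.91 and 14.5 CPM.

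Chrm1 (chromosome 19, 8663789 to 8683587, plus strand) had a count in all 54 cells but spread over a wide range. Its lowest, median and highest values were 0.0573, 2.07 and 61.4 CPM in female P40 cells, 0.0553, 10.9 and 44.7 CPM in female P42 cells, 0.214, 6.31 and 110 CPM in male P35 cells and 0.0346, 2.61 and 76.7 CPM in male P36 cells. In each pool some cells lay near the level of the Y-linked genes and others far above it: 22 of 54 cells were at or below 2.34 CPM and 16 were at 20 CPM or more. Its standard deviation of log2(CPM + 1) across cells was 2.16, against a median of 1.44 over the tested genes, and 7.06% of them varied as much. Chrm1 was the highest muscarinic gene by CPM in 14 cells.

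Chrm4 (chromosome 2, 91927249 to 91928688, plus strand), the other Gi/o-coupled gene, had no count in 21 cells and reached 10 CPM in 6. Those were 2 female P42 cells and 4 male P35 cells, with a highest value of 45.4 CPM in male P35 cell 7. Female P40 cells went no higher than 4.59 CPM and male P36 cells no higher than 8.11 CPM. Of the 33 cells with a count, 19 were at or below the highest Y-linked value.

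Chrm3 (chromosome 13, 9875486 to 10360847, minus strand) had a median of 0.354 CPM and was at 10 CPM or more in 6 cells. They were female P42 cells 4 and 7 at 23.3 and 25.1 CPM, male P35 cell 12 at 17.9 CPM, and male P36 cells 1, 9 and 11 at 51.7, 56.9 and 41.3 CPM. No female P40 cell passed 2.98 CPM. Of the other 7 receptor genes, 4 were at 10 CPM or more in 4 of these 6 cells, and in 13 of the 48 remaining Pass cells; the medians were 4 and 3 genes. In each of those 4 Chrm3 cells Chrm2, Chrna4 and Chrnb2 passed. This view of the cells was chosen with their values known.

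Sorted by G protein, 44 of 54 cells had a Gi/o-coupled gene (Chrm2 or Chrm4) at 10 CPM or more (81.5%, 68.6 to 90.7%) and 24 had a Gq-coupled gene (Chrm1 or Chrm3; 44.4%, 30.9 to 58.6%). Both kinds were found together in 19 cells, Gi/o-coupled genes without Gq-coupled ones in 25, Gq-coupled genes alone in 5, and neither in 5. Chrm1 and Chrm2 passed together in 17 cells. Across the 54 cells Chrm1 and Chrm2 had a Spearman rho of -0.14.

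Chrnb2 (chromosome 3, 89746195 to 89764632, minus strand) was the most evenly spread of the 8 genes, with a coefficient of variation of 0.488 across cells. Lowest, median and highest values were 5.84, 56.6 and 139 CPM in female P40 cells, 20.9, 38.4 and 93.8 CPM in female P42 cells, 32.3, 55.0 and 103 CPM in male P35 cells and 8.47, 64.1 and 98.4 CPM in male P36 cells. All cells lay above the highest Y-linked value, and only female P40 cell 1 and male P36 cell 8 fell short of 10 CPM. By CPM, which is not corrected for length, Chrnb2 was the highest of the nicotinic members in 43 cells. Its exons hold 8344 bases, against 4755 for Chrna4 and 2078 for Chrna7, which favours Chrnb2 in such a ranking. Part of this signal is uncertain: 1365 of its 8344 exon bases (16.4%) are shared with exons of Adar, an RNA-editing enzyme gene on the opposite strand, and the sources used here do not give the strand setting of the counting.

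Adar was also the tested gene most like Chrnb2 across cells, with a Spearman rho of 0.71 (n = 54 cells). The next, Lrrc16b and Celf2, were at 0.48 and 0.46. Within pools the rho with Adar was 0.78 in the 17 female P40 cells, 0.64 in the 10 female P42 cells, 0.31 in the 14 male P35 cells and 0.92 in the 13 male P36 cells. Adar had a median of 65.5 CPM, and Chrnb2 exceeded it in 16 cells. In the 4 cells with Adar under 10 CPM, Chrnb2 was at 5.84, 8.47, 11.7 and 20.9 CPM, all under its own median of 54.4 CPM. How many Chrnb2 counts come from Adar transcripts was not tested. For the other members the exon bases shared with another gene were 5.25% in Chrm1 (with Gm22820), 1.55% in Chrm2 (with 9330158H04Rik) and 0 in the rest.

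**Figure D2:**
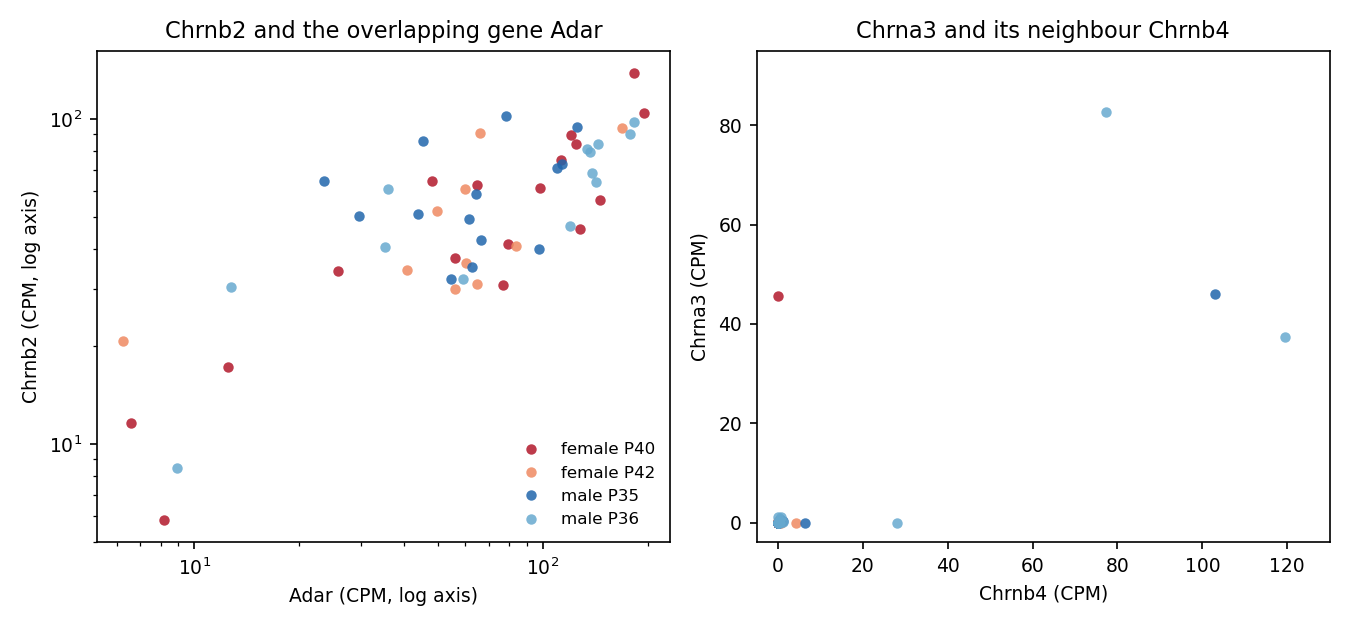
Left, Chrnb2 against Adar, whose exons it overlaps (CPM, log axes); right, Chrna3 against Chrnb4, its neighbour on the chromosome (CPM, linear axes). Each point is 1 of 54 Pass cells coloured by pool; Chrnb2 and Adar vary together (rho 0.71), and 3 male cells lie high on both axes at right, with 1 female P40 cell high in Chrna3 alone.

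Chrna4 (chromosome 2, 181018380 to 181043546, minus strand) had a count in every cell and a median of 14.04 CPM. It had lowest, median and highest values of 0.330, 15.1 and 303 CPM in female P40 cells, 0.301, 8.60 and 77.2 CPM in female P42 cells, 0.143, 13.2 and 55.0 CPM in male P35 cells and 0.652, 20.9 and 109 CPM in male P36 cells. The 303 CPM of female P40 cell 18 stood well above the next value, 109 CPM. That cell and the deepest cell, female P40 cell 3, together gave 74.0% of the Chrna4 counts of their pool. Chrna4 was the highest of the nicotinic members by CPM in 10 cells.

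Chrna4 and Chrnb2, whose products form the alpha4-beta2 receptor, were both at 10 CPM or more in 29 cells (53.7%, 39.6 to 67.4%). Chrnb2 passed without Chrna4 in 23 cells, and in 18 of these no alpha subunit among the members passed. The levels of both genes were hardly related across cells, with a Spearman rho of 0.019 (n = 54). Chrm2, Chrna4 and Chrnb2, the most widely expressed genes, passed together in 22 cells. Per cell, 3 of the 8 genes passed at the median and 1 to 5 at the extremes, and no cell lacked all 8.

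**Figure D3:**
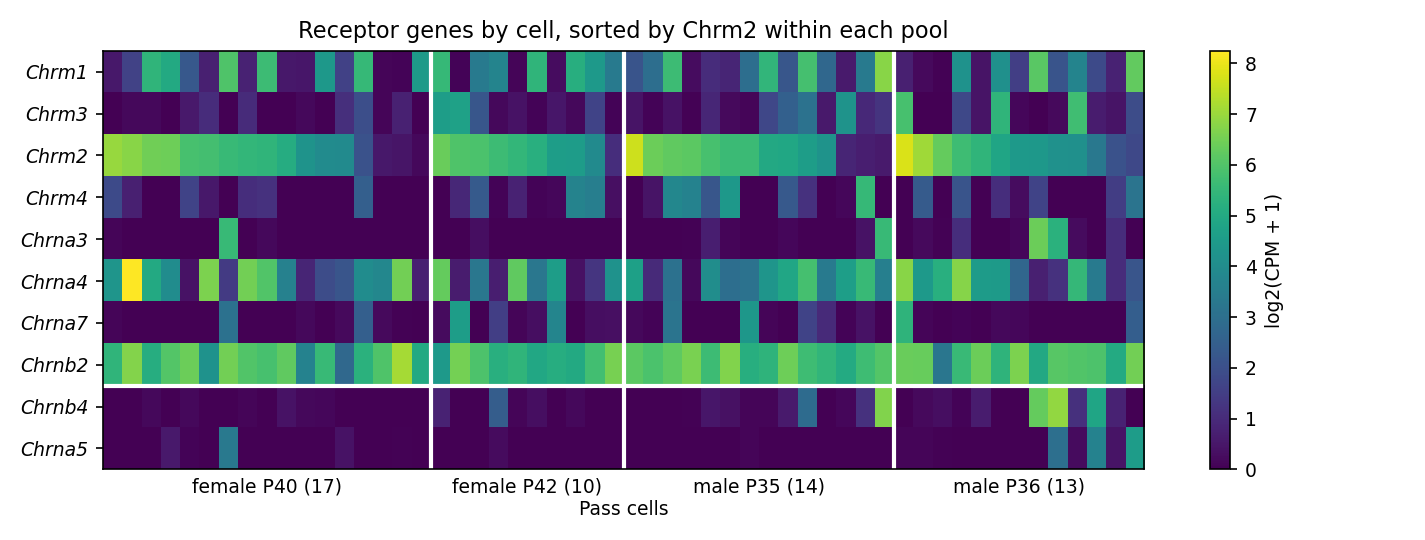
log2(CPM + 1) of the 8 receptor genes and, below the white line, of Chrnb4 and Chrna5, in 54 Pass cells (columns), grouped by pool with the number of cells and sorted by Chrm2 within each pool. Chrnb2 is present across nearly the whole row, Chrm1 and Chrna4 alternate between high and low cells, and Chrm3, Chrm4, Chrna3 and Chrna7 appear in a few columns.

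Chrna7 (chromosome 7, 63098692 to 63212569, minus strand) was low in most cells, with a median of 0.0666 CPM and no count in 24. It reached 10 CPM in female P42 cells 3 and 7 at 12.6 and 23.0 CPM, in male P35 cell 11 at 19.8 CPM and in male P36 cell 9 at 40.4 CPM. Female P40 cells went no higher than 7.47 CPM. All 4 cells also had Chrnb2 at 10 CPM or more. Of the 30 cells with a count, 22 were at or below the highest Y-linked value.

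Chrna3 (chromosome 9, 55010111 to 55026562, minus strand) was undetected in most cells and high in a few. It had no count in 36 cells, was at 0.0346 to 1.09 CPM in 14, and was at 45.6 CPM in female P40 cell 7, 46.0 CPM in male P35 cell 2, and 37.4 and 82.7 CPM in male P36 cells 4 and 7. No cell lay between 1.09 and 37.4 CPM, so the count of 4 cells is the same at thresholds of 10 and 20 CPM. No female P42 cell was above 0.238 CPM. Male P36 cell 7 alone held 47.8% of all Chrna3 counts.

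Chrna3 lies in a cluster with Chrna5 and Chrnb4 that spans 67900 bases of chromosome 9, with 2331 bases between Chrna5 and Chrna3 and 1591 bases between Chrna3 and Chrnb4. The 250 bases before the RefSeq starts of these genes (GRCm38.p6) are shown because 3 of the 4 cells high in Chrna3 were also high in Chrnb4. They are chr9:55026563-55026812 and chr9:55048545-55048794 on the minus strand for Chrna3 and Chrnb4, and chr9:54980630-54980879 and chr9:54981238-54981487 on the plus strand for the first and second start of Chrna5. Sequences run 5′ to 3′ on the gene's strand, and capitals mark matches to the GC box GGGCGG on either strand, a motif of Sp-family factors; matches may overlap.
Chrna3: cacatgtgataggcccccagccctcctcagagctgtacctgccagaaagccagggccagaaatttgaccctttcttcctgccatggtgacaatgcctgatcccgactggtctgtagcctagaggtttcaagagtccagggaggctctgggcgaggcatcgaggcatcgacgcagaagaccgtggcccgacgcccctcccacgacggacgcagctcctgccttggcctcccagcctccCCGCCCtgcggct
Chrnb4: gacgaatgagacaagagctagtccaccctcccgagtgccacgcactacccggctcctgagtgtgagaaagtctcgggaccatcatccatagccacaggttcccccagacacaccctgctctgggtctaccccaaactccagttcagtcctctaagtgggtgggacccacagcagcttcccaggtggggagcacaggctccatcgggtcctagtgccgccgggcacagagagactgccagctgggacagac
Chrna5 first start: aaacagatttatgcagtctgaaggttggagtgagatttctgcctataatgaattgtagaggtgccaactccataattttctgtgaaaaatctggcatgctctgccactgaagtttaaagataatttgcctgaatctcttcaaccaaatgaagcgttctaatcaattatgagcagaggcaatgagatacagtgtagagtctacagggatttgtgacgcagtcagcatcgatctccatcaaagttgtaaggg
Chrna5 second start: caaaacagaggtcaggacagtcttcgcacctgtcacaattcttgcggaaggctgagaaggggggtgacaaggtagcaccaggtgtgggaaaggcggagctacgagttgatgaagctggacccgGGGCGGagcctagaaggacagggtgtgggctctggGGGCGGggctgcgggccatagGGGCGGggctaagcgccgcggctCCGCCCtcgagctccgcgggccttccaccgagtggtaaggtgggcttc
The Chrna3 window holds 1 match, the Chrnb4 window 0, and the Chrna5 windows 0 and 4. Over all 32851 windows of the same length in the table, 32.7% hold at least 1 match. The letters describe the windows and say nothing of binding in these cells.

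Chrnb4, the usual partner subunit of alpha3, was at 10 CPM or more in 4 of 54 cells, and 3 of these were Chrna3 cells. Male P35 cell 2 had 46.0 CPM of Chrna3 with 103 CPM of Chrnb4, male P36 cell 4 had 37.4 with 120 CPM, and male P36 cell 7 had 82.7 with 77.3 CPM. Female P40 cell 7, the Chrna3 cell among females, had no Chrnb4 count and 9.13 CPM of Chrna5, the accessory alpha5 subunit. In the reverse case, male P36 cell 3 had 28.0 CPM of Chrnb4 and 11.5 CPM of Chrna5 with no Chrna3 count. The second cell with Chrna5 at 10 CPM or more, male P36 cell 13 at 22.5 CPM, had neither neighbour.

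Marker levels in these cells were mixed. The 4 Chrna3 cells had Gad1 at 1531 to 3157 CPM and Pvalb at 12.8 to 360 CPM. Slc17a7 was at 148 CPM in female P40 cell 7 and, in males, at 16.3 CPM in P35 cell 2, 3.25 CPM in P36 cell 4 and 409 CPM in P36 cell 7. Male P36 cell 3, with Chrnb4 but no Chrna3, had 2329 CPM of Vip, a neuropeptide of another interneuron class, and male P36 cell 13, with Chrna5 alone, had 428 CPM of Slc17a7 and 297 CPM of Sst. The part of RNA from other cells in these values was not tested. The labels give each cell a resting potential (vrest), rm and cm, without units. In the 4 Chrna3 cells rm was 124 to 190, against a median of 266 over the 49 Pass cells with labels, of which 12 were at 190 or less. Their cm was 55 to 74, against a median of 38, and 14 of 49 cells were at 55 or more. The male Chrna3 cells, P35 cell 2 and P36 cells 4 and 7, all come early in the order of male cells. In the male P36 pool, cells 1 to 8 had higher cm than cells 9 to 13, and mostly lower rm. The labels of the Chrna3 cells therefore cannot be told apart from this order.

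Over all 24 pairs of a receptor gene with a membrane label, Spearman rho ran from -0.32 (Chrna3 with rm) to 0.28 (Chrna3 with cm) in 49 cells. Over the 28 pairs of receptor genes it ran from -0.32 (Chrna3 with Chrna7) to 0.32 (Chrm3 with Chrna4), with a median of 0.016, in 54 cells. These points share animals, pools and depth. Among males, Chrna3 had counts mainly in cells 1 to 8 of both pools. Chrna7 had them mainly in male cells numbered 9 or above, and many were counts of 1. The rho of Chrna3 with Chrna7, and those with rm and cm, cannot be told apart from this order of the cells. No label says whether the order marks library batches, and carry-over between libraries was not tested. With all cells thinned to 2.05 M counts, no label pair and 1 gene pair reached 0.3 in size, against 1 and 2 on the full counts.

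For the other genes with broad expression, the 3 tested genes most like each by Spearman rho of CPM over 54 cells were as follows. Chrm2 was most like Hapln1, a link protein of perineuronal nets, at 0.58, Kcnip4, a subunit of A-type potassium channels, at 0.56, and Kcng4, a modifier subunit of Kv2 channels, at 0.53. Chrna4 was most like Satb1, a chromatin organiser needed by interneurons, at 0.53, Cd24a at 0.51 and Golga1 at 0.45. Chrm1 was most like Fam163b at 0.55, BC022687 at 0.54 and Sez6l2 at 0.52. At most 0.0335% of the 14933 tested genes reached 0.5 with any of these.

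Chrm1 is also abundant in excitatory neurons, so its level was set beside 9 excitatory markers. It had a positive rho with 9 of 9 (0.078 to 0.47, highest with Slc17a7), whereas Chrm2 had a positive rho with 2 of 9 and -0.29 with Slc17a7. Chrna7 had a positive rho with 8 of 9 (-0.0086 to 0.34), so Chrm1 was not alone in this. Chrm4 and Chrna3 had a positive rho with 5 of 9 each, Chrnb2 with 4, Chrm3 with 2 and Chrna4 with 1. With the summed level of the 9 markers, the rho of Chrm1 was 0.29. With the summed level of 10 markers of other interneurons it was 0.41, and 8 of those 10 had a positive rho (-0.11 to 0.42). The sum of the 9 excitatory markers had lowest, median and highest values of 33.0, 129 and 659 CPM in female P40 cells. In female P42 cells they were 49.4, 108 and 529 CPM, in male P35 cells 65.7, 175 and 930 CPM and in male P36 cells 24.7, 101 and 1253 CPM. Of these 9, Slc17a7 and Camk2a had a count in every cell and none was at 0 in all. In the 40 cells with Pvalb above Sst and Gad1 above Slc17a7, Chrm1 passed 10 CPM in 13 (32.5%). Its rho there was 0.54 with Slc17a7, 0.41 with the summed excitatory markers and 0.47 with the summed markers of other interneurons. The share of Chrm1 counts that came from other cells was not tested.

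To place the genes against each other, counts were summed over the cells of each pool, scaled with TMM normalization and divided by exon length. Chrm2 led at 8.09 ± 1.62 CPM per kb (SD, n = 4 pools), with values of 6.97 and 6.43 in the female P40 and P42 pools and 9.35 and 9.61 in the male P35 and P36 pools. It was followed by Chrnb2 at 7.43 ± 1.10 and Chrna4 at 6.33 ± 4.19 CPM per kb. A second tier held Chrm1 at 2.57 ± 0.744, Chrm4 at 2.07 ± 1.81, Chrna7 at 1.33 ± 0.871, Chrm3 at 0.982 ± 0.794 and Chrna3 at 0.453 ± 0.560 CPM per kb. No neighbours in this order had ranges that lay apart, and the order of neighbours held in 2 to 4 of the 4 pools. The Chrm4 gene model of 1440 bases is almost wholly coding (1437 bases), which raises its level per length against genes with annotated UTRs. Per coding length Chrm3 moved ahead of Chrm4 and Chrna7, and by CPM with no length Chrnb2 moved ahead of Chrm2.

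**Figure D4:**
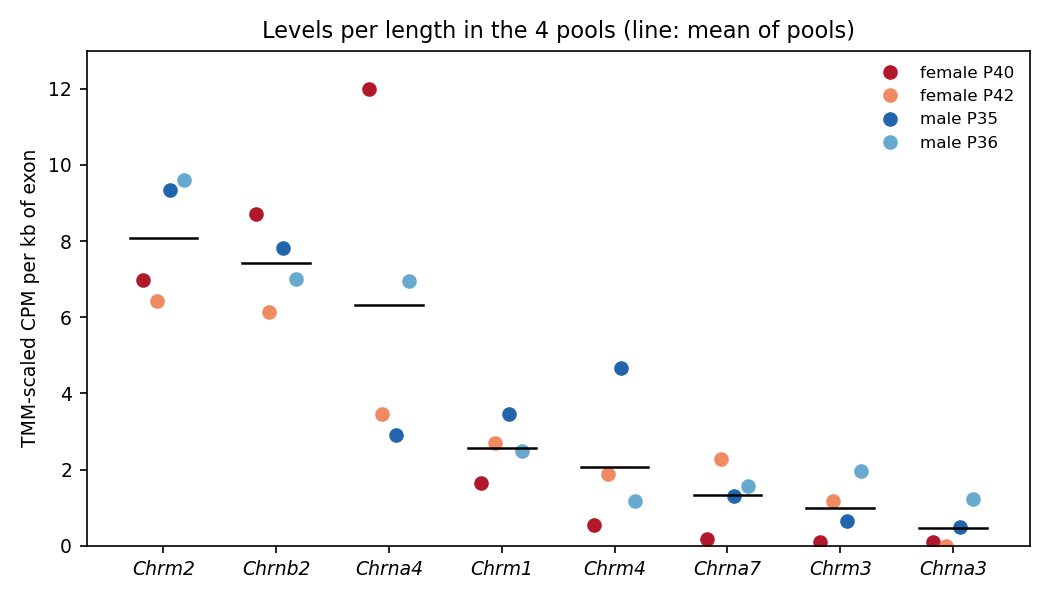
TMM-scaled CPM per kb of exon for each receptor gene in the 4 pools (points; lines are means of the 4 pools), ordered by mean. Chrm2, Chrnb2 and Chrna4 average 6.33 to 8.09, the other 5 genes 0.453 to 2.57, and the female P40 pool of Chrna4 stands alone at 12.01.

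Female and male pools were compared with edgeR's quasi-likelihood test over 14933 genes with Benjamini-Hochberg adjustment. Of the 8 receptor genes, 0 passed an adjusted p of 0.05 and 0 had an unadjusted p under 0.05, where the share over all tested genes was 0.0134% (2 genes, both Y-linked) and 5.51%. Fitted differences were below 0 for 6 genes and above 0 for 2, with a median of -0.48 on the log2 scale against 0.0044 over all genes tested. In 2 of the 8 both female pools lay below both male pools, as was so for 17.3% of all tested genes (33.9% when either direction counts). DESeq2, limma and each alternative filter or set of cells also called 0 of the 8.

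Chrm2 stood at 39.5 and 36.5 TMM-scaled CPM in the female P40 and P42 pools and at 53.1 and 54.5 in the male P35 and P36 pools. The pools did not overlap, but the difference of -0.50 (log2, SE 0.30) had an adjusted p of 0.975, and the median cell was at 40.8 CPM in females and 29.4 CPM in males. With limma on mean log2(CPM + 1) per pool the difference was -0.014, and without the deepest cell -0.30. For Chrna3 the pools were at 0.489 and 0.00814 in females and 2.57 and 6.49 in males, a difference of -4.17 (SE 2.0, adjusted p 0.930). Each of these pool values above 0.1 rests on 1 or 2 cells, with 97.3% of the counts of the female P40 pool, 98.4% of male P35 and, in 2 cells, 97.6% of male P36.

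Chrna4 was at 57.1 and 16.5 in the female pools and 13.8 and 33.0 in the male pools, with a fitted difference of 0.65 (SE 0.65, adjusted p 0.986). Without the female P40 pool the fitted difference turned to -0.50. Chrnb2 was at 72.7 and 51.3 in the female pools and 65.3 and 58.5 in the male pools, a difference of 0.0022 (SE 0.29, adjusted p 0.9999). Chrm1 was at 10.4 and 16.9 in the female pools and 21.8 and 15.6 in the male pools, a difference of -0.45 (SE 0.54, adjusted p 0.993). The sex groups overlapped for each of these 3 genes, as they did for Chrm3 (-1.03, SE 1.38), Chrm4 (-1.26, SE 1.38) and Chrna7 (-0.23, SE 1.49), whose pools rest on few cells.

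**Figure D5:**
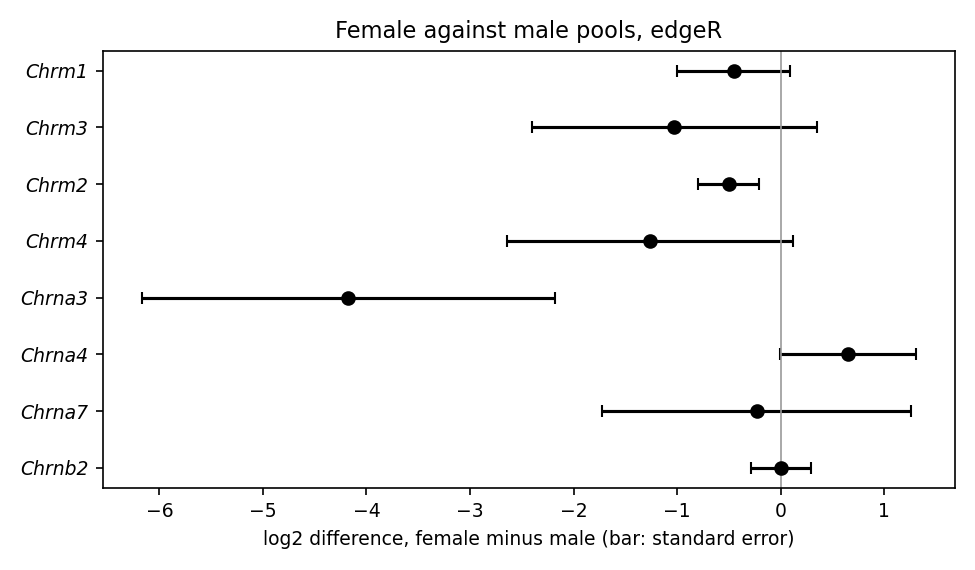
Fitted log2 difference, female minus male, for each receptor gene from the edgeR test on 4 pools, with bars of 1 standard error. The bars of Chrm2 and Chrna3 lie wholly below 0, and 0 of the 8 genes passed the adjusted test.

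Other genes of the cholinergic system were read from 6 lists. Of the 12 remaining nicotinic subunits, none was at 10 CPM in most cells, 7 reached it in no cell, and Chrna10 and Chrnd had no count, which allows up to 0.00436 CPM over all Pass cells. Those that reached 10 CPM were Chrnb1 in 5 cells, Chrnb4 in 4, Chrna6 in 3, and Chrna1 and Chrna5 in 2 each. Chrm5, the remaining muscarinic receptor, had a count in 2 cells with a highest value of 8.71 CPM. Of 5 subunits tested, 0 passed and 1 had an unadjusted p under 0.05. That was Chrnb4, at 0.0519 and 0.675 TMM-scaled CPM in the female pools and 6.12 and 13.7 in the male pools, a difference of -4.77 (log2, SE 1.52, adjusted p 0.878), of whose counts 53.0% came from 2 male cells. Chrna5 had the next smallest p, with 0.121 and 0.0244 in the female pools, 0.00569 and 4.31 in the male pools, and a fitted difference of -4.86 (SE 2.68) that turned to 3.54 without the male P36 pool.

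The genes that make or move acetylcholine were low, and those that break it down or take up choline were mixed. Ache, the acetylcholine-degrading enzyme, reached 10 CPM in 46 cells with a median of 122 CPM, and the choline transporter-like gene Slc44a1 in 39 cells with a median of 24.6 CPM. Chat, which makes acetylcholine, had a count in 10 cells and reached 10 CPM in 1; 82.6% of its counts were in male P35 cell 7 and male P36 cell 10. Of 5 genes tested from this list of 8, 0 passed and 2 (Colq and Chat) had an unadjusted p under 0.05, with a median of -0.87 (log2). Colq, the collagen tail of acetylcholinesterase, had the smallest p. It was at 0.0563 and 0.0244 in the female pools and 0.689 and 13.3 in the male pools, a difference of -7.38 (SE 1.99, adjusted p 0.878), with 92.9% of its counts in male P36 cells 8 and 10. Colq shares 6.25% of its exon bases with Gm49387 on the same strand, and Slc44a1 shares 4.64% with 1700060J05Rik on the opposite strand. Prima1 had no count.

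Genes for receptor assembly and prototoxins were broadly present, with 7 of 8 at 10 CPM or more in at least 27 cells. Ly6e, of the Ly6 family, had a median of 145 CPM and Ric3, a chaperone of nicotinic receptors, a median of 105 CPM. Lypd1, a prototoxin that binds nicotinic receptors, was the least widespread, in 24 cells. It was at 11.6 and 6.33 TMM-scaled CPM in the female pools and 50.6 and 35.8 in the male pools, a difference of -2.27 (log2, SE 0.48, adjusted p 0.866). Lypd6, a related gene, was at 51.0 and 55.9 in the female pools and 111 and 85.7 in the male pools, a difference of -0.88 (SE 0.26, adjusted p 0.878). The Lypd6 difference was -0.12 in the 40 cells with Pvalb above Sst and Gad1 above Slc17a7, and -0.037 with limma on mean log2(CPM + 1). Both had unadjusted p under 0.05, 0 of the 8 passed after adjustment, and the list's median was -0.18. Lypd1 had a rho of 0.35 with the summed excitatory markers over 54 cells, and Lypd6 of -0.071. Lypd1 shares 1202 of 6984 exon bases (17.2%) with Gpr39 and Ric3 149 of 5281 (2.82%) with Tub, both on the opposite strand, and how many counts come from those genes was not tested.

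Downstream genes of both G protein arms were present in most cells, 10 of 13 in the Gq arm and 7 of 8 in the Gi/o arm. In the Gq arm, Prkcb, a protein kinase C, had a median of 251 CPM and the G protein subunit gene Gna11 a median of 151 CPM. Prkcb was at 278 and 195 in the female pools and 333 and 281 in the male pools (-0.38, SE 0.22). In the Gi/o arm, Gnai1 and Gnao1, the inhibitory alpha subunits, had medians of 142 and 105 CPM. The smallest p there belonged to Gnai1, at 136 and 118 in the female pools and 178 and 145 in the male pools (-0.35, SE 0.21), and to Gnaz, at 41.3 and 80.1 in the female pools and 86.4 and 66.6 in the male pools (-0.34, SE 0.36). Medians over the lists were -0.14 and -0.059; 0 genes of either passed, and 1 of 13 in the Gq arm and 0 of 8 in the Gi/o arm had an unadjusted p under 0.05. Over the lists, DESeq2 called 4 genes, among them Chrnb4, Colq and Lypd1, and edgeR with no filter on low counts called 3, among them Colq and Lypd1. No other alternative called a gene of the lists.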

How the data were processed

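Single cells were collected by patch pipette and made into Nextera XT libraries, per the labels' protocols. STAR, edgeR and the build GRCm38 are named in the submitters' processing notes; the sources used here do not give versions, the counting tool, the annotation or strand. Whole-number gene counts, not normalized, make up the table that the authors deposited, and 0 columns were unmatched. The deposited normalized table holds a signal for 54 cells, each count times 1 factor per cell (0.866 to 1.32; Pearson r with the inverse TMM factor 1 across cells), and was used for that check only. The deposited isoform table was not used.

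A cell's level of a gene is CPM of that cell's total. Since cells are not tied to animals, Pass counts were summed into 4 pools (229, 123, 173 and 162 M counts for female P40, female P42, male P35 and male P36), so p-values measure the spread between 2 pools per sex. Genes counted in 10 or more Pass cells that passed filterByExpr were tested with edgeR 4.0.16 (R 4.3.3; quasi-likelihood F test, TMM, two-sided, Benjamini-Hochberg over 14933 genes); an SE is the absolute log2 difference over the square root of F. The test was also run on pools simulated from the fitted means and spread. Those pools do not mimic genes whose counts sit in a few cells, so the run gives no assurance for such genes. Pairs of Pass cells with identical counts numbered 0, and Pearson r of log2(CPM + 1) between cells was 0.664 to 0.912. Exon lengths and coordinates are from GENCODE vM21, promoters from RefSeq, in which 7 of 8 receptor genes had a window. Alternatives were RLE scaling, DESeq2 1.42.0, limma 3.58.1 on mean log2(CPM + 1), other filters, cells thinned to 2.05 M counts, other sets of cells, thresholds of 1 and 20 CPM, and each pool left out. Leaving out female P40 cell 3 was chosen after seeing the data.

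The genes, lists and tests were chosen with earlier results of these data known. Named genes are the 8 receptor genes, the 3 tested genes most like each one at 1 CPM or more in at least 27 cells, and from each list the 2 of highest median CPM, the 2 of smallest p, any called gene and, where no member is in most cells, those at 10 CPM in at least 1 cell. Chrna5 and Chrnb4 as neighbours, Adar, and the cells named for high values were picked with their values known. Intervals are exact (Clopper-Pearson) and cover only the sampling of cells taken as independent, not error in the read counts. No molecular identifiers are named. Some results are not reported here, though the fits and counts include the genes behind them.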

Additional observations from a re-analysis of the deposited data

Results flagged for a closer look

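In the 10 female P42 cells, Chrna3 had a count in cell 1 only, at 0.238 CPM, which set that cell apart from the others at 0. This was 1 of 8 sets of 4 to 10 cells and a receptor gene examined. The value is a count of 1, below the highest Y-linked value in a female cell (2.34 CPM). With the other 9 cells at 0, any count at all would set a cell apart by this rule, so the flag has no chance rate. Another 3 values of the 4 Fail cells, which entered no comparison except the alternative that adds them, exceeded every Pass cell of the same sex and age. Chrm3 was at 17.9432 CPM in male P35 cell 3, against a highest Pass value of 17.9376 CPM. Chrna4 was at 75.4 CPM in male P35 cell 4, against 55.0 CPM. Chrna7 was at 15.2 CPM in female P40 cell 10, against 7.47 CPM. The Fail libraries held 0.836, 0.596 and 5.08 M counts in this order.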

How the results depend on the processing

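No paired analysis was possible because the replicate numbers only name cells. The 8 receptor genes were called under 0 alternatives; their lowest adjusted p was 0.287 (Chrna3, DESeq2). Genes called over the whole table numbered 2 in edgeR, 111 with no filter on low counts, 1 with thinned cells and 179 with DESeq2; leaving out a pool gave 0 to 21, with 21 without female P40, 1 without male P35 and 0 without male P36. Of the cholinergic lists, 3 genes were called with no filter and 4 by DESeq2. At 1 CPM, 36 cells passed for Chrm1, 18 for Chrm3, 21 for Chrm4 and 10 for Chrna7; at 20 CPM, 1 passed for Chrm4 and 2 for Chrna7. In the 40 cells with Pvalb above Sst and Gad1 above Slc17a7, 13 passed for Chrm1, 3 for Chrm3 and 3 for Chrm4. As shares these were 32.5, 7.5 and 7.5%, against 38.9, 11.1 and 11.1% of all Pass cells, so the smaller set accounts for part of the fall. Pairs of receptor genes with a rho of 0.3 or more in size numbered 1 with thinned cells and 4 in those 40, pairs with a membrane label 0 and 2, and the rho of Chrna3 with Chrna7 was -0.15 with thinned cells.

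Signs of uncalled sex differences (log2) turned as follows. With limma, Chrm1 was at 0.13, Chrna4 at -0.23, Chrna7 at 0.030 and Chrnb2 at -0.29. Chrna7 was at 0.051 in the 40 cells, and Chrnb2 at -0.21 with thinned cells, -0.0084 with Fail cells and -0.24 without the deepest cell. Leaving out each pool gave ranges of -2.39 to 0.046 for Chrm4, -0.50 to 1.42 for Chrna4, -3.04 to 0.67 for Chrna7, -0.26 to 0.24 for Chrnb2, -6.41 to 3.54 for Chrna5 and -0.88 to 0.071 for Gnaz. The causes were not tested. Over all alternatives Chrm2 ran from -0.62 to -0.014, Lypd6 from -1.05 to -0.037, Chrnb4 from -7.54 to -1.04 and Colq from -8.31 to -0.69. The other settings kept each direction and side of the threshold of the named genes, though not their size, apart from the DESeq2 and unfiltered calls above, and the order per length kept 5 to 7 of 7 neighbouring pairs. Few cells above 10 CPM limit Chrm3, Chrm4, Chrna3 and Chrna7.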

Other observations

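Male P36 cell 9 held the highest CPM of Chrm2 (217), Chrm3 (56.9) and Chrna7 (40.4) among all 54 Pass cells, and the second highest of Chrna4 (109), while Chrm1 was at 0.642 CPM and Chrm4 and Chrna3 had no count. Male P35 cell 2, with the highest Chrm1 (110 CPM), differed in several genes. There Chrm2 was at 0.518 CPM and Chrm3 at 1.35 CPM, Chrna7 had no count, and Chrna3 and Chrnb4 were at 46.0 and 103 CPM. Like male P36 cell 9 it had no Chrm4 count and passed 10 CPM for Chrna4 (10.8) and Chrnb2 (64.6). The deepest library, female P40 cell 3, had the highest Chrnb2 (139 CPM) with Chrm1 at 0.0573 CPM and Chrm2 at 0.382 CPM. These cells were picked with their values known.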
